A study of Homo sapiens with 4 samples.

Results

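The genes described here are 10 ligands, receptors, intracellular carriers and inhibitors of transforming growth factor beta (TGF-beta) and activin signalling: TGFB1, TGFB2, TGFB3, INHBA, FST, TGFBR1, TGFBR2, TGFBR3, SMAD3 and SMAD7. Members were found by an exact match of the platform's gene symbol, and all 10 genes were found, on 27 of the 44988 probe sets that carry 1 symbol (18132 genes). RNA of U87MG, an established glioblastoma line of human origin, was read on 4 human PrimeView arrays, 1-colour Affymetrix chips on which a probe set reads 1 transcript or a group of related transcripts. In 2 samples the cells had received a vector that overexpresses NeuroD2, a basic helix-loop-helix transcription factor of neuronal differentiation, and in the other 2 they had received the PCMV control vector. All 4 were kept at 0.2% oxygen and were harvested 48 hours after transfection, so exposure to hypoxia is common to both groups. No arrays at another oxygen level were available. The response to hypoxia was therefore not measured, and a difference in it between the groups cannot be told apart from other differences. The labels call the 2 arrays of a group biological replicates, without saying whether they were separate cultures, and do not give the share of cells that took up a vector, so p-values measure the spread between these samples.

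TGF-beta ligands are secreted in a latent form and, once released, bring a type II receptor (TGFBR2) together with a type I receptor (TGFBR1), which then phosphorylates SMAD2 and SMAD3. These move to the nucleus with SMAD4 and change transcription, and SMAD7 is among the genes they switch on and blocks the type I receptor in turn. Activins signal through receptors of their own to the same SMADs, and follistatin (FST) traps activins outside the cell. In glioblastoma the pathway is known for its links to invasion, a mesenchymal state and suppression of immune cells.

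The values were the deposited probe set values on a log2 scale, on which a difference of 1 is a doubling. NEUROD2, the overexpressed gene, was at 7.37 and 7.82 with the NeuroD2 vector, against 5.46 and 5.35 with the control vector, on its brightest probe set (difference 2.19, standard error 0.16, adjusted p = 0.00707 by limma). Its other probe sets differed by -0.21 (adjusted p = 0.513) and -0.07 (adjusted p = 0.683). The added hybridisation control RNAs read 0.39 higher on the NeuroD2 arrays, and the poly-A control RNAs averaged 7.96 and 8.03 on the NeuroD2 arrays, against 6.95 and 7.98 on the control arrays. The part of these array differences in the results below was not tested. Of 6 glioblastoma or astroglial markers 4 lay at or above the median level of all probe sets (5.98), and CHI3L1 and S100B lay below it. VIM lay between 14.12 and 14.18 and CD44 between 12.74 and 12.92, but NES only between 6.37 and 6.90 and GFAP between 6.07 and 6.35. The epithelial, haematopoietic and endothelial markers lay between 2.95 and 5.77. Of the neuronal markers 2 lay above the median level, TUBB3 (10.85 to 11.02) and SNAP25 (7.93 to 8.66), as did 2 of the smooth muscle or fibroblast markers, DES and PDGFRB. Of 25 marker genes 0 rose and 3 fell, the neuronal genes MAP2 (-1.23) and SNAP25 (-0.59) and, of the smooth muscle or fibroblast markers, PDGFRB (-0.55). The 6 neuronal markers averaged 6.38 and 6.35 with the NeuroD2 vector and 6.63 and 6.68 with the control vector, with 2 of the 6 higher and a median difference of -0.10. The 3 smooth muscle or fibroblast markers averaged 6.06 and 6.02 with the NeuroD2 vector and 6.18 and 6.11 with the control vector, with PDGFRB lower, DES (0.07) and MYH11 (0.16) higher without passing, and a median difference of 0.07. Their part in the results below was not tested.

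Of the 27 member probe sets 1 was called at an adjusted p below 0.05 (limma, Benjamini-Hochberg over 49293 probe sets), a probe set of TGFBR1 that was lower with the NeuroD2 vector. That is 3.7% of the members' probe sets, beside 2.87% of all probe sets tested, and 1.61% of all were called lower. The share is near the background, so the count is not a result about these genes as a group. At an unadjusted p below 0.05 there were 7 member probe sets (25.9%), 3 higher and 4 lower, beside 19.7% of all. The values of the groups did not overlap in 14 of the 27 (51.9%), 7 higher and 7 lower, beside 49.3% of all. The median difference over the members was -0.01, and over all probe sets it was 0.01. The median size of the difference, regardless of sign, was 0.18 for the members and 0.11 for all probe sets. In bulk RNA of this kind, fewer cells with a transcript and less of it per cell cannot be told apart.

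**Figure D1:**
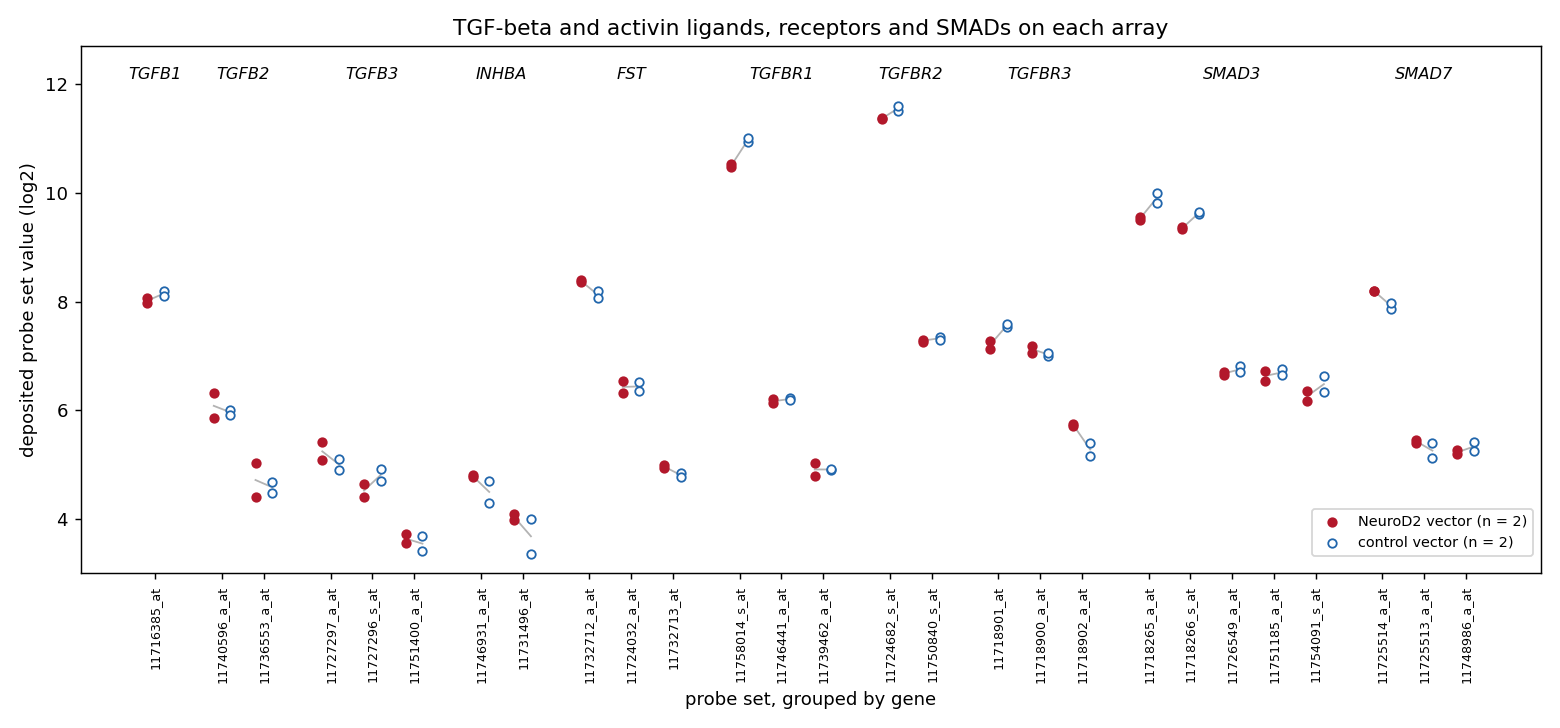
Deposited log2 value (vertical axis) of every member probe set on each array, grouped by gene and, within a gene, from the brightest to the dimmest. Filled points are the 2 NeuroD2 arrays and open points the 2 control arrays, with a line between the group means. On the brightest probe set of TGFBR1 the NeuroD2 arrays read 10.52 and 10.48 and the control arrays 10.93 and 11.01, while on most others the groups lie within 0.3 of each other.

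The type I receptor gene TGFBR1 fell on the brightest of its 3 probe sets, 11758014_s_at, which read 10.52 and 10.48 with the NeuroD2 vector and 10.93 and 11.01 with the control vector. A probe set with the ending s_at can match transcripts of more than 1 gene, and which ones this probe set matches was not checked here. Both NeuroD2 arrays lay below both control arrays, and the gap was larger than the spread within either group. The means were 10.50 ± 0.03 and 10.97 ± 0.06 (SD, n = 2 each), and the difference was -0.47 (95% interval -0.67 to -0.27, adjusted p = 0.0460 by limma), so that the control level was 1.39-fold the NeuroD2 level. The other TGFBR1 probe sets, which were far dimmer, did not show this difference. One of them, 11739462_a_at, lay below the median level of all probe sets (5.98), and 11746441_a_at lay only a little above it. Whether probe sets this dim could show such a difference was not tested. Probe set 11746441_a_at read 6.13 and 6.20 with the NeuroD2 vector and 6.23 and 6.18 with the control vector (difference -0.04, 95% interval -0.24 to 0.15). On 11739462_a_at the values were 5.03 and 4.79 with the NeuroD2 vector and 4.91 and 4.92 with the control vector, with a difference of 0.00 (95% interval -0.25 to 0.25). The groups overlapped on both, and averaged over its probe sets TGFBR1 differed by -0.17 (adjusted p = 0.215). The call was also lost with a robust prior (adjusted p = 0.0502 by limma). With any single array left out, the difference on 11758014_s_at stayed between -0.51 and -0.43. Such fits leave 1 array in a group and called few or no probe sets anywhere, so they cannot decide whether this call holds.

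TGFBR2, the type II receptor that binds the ligand first, had the brightest readings of the family, and these did not pass. On 11724682_s_at it read 11.36 and 11.37 with the NeuroD2 vector and 11.51 and 11.60 with the control vector, a difference of -0.19 (95% interval -0.39 to 0.00, adjusted p = 0.262). The groups did not overlap on that probe set, whereas on 11750840_s_at the readings were 7.30 and 7.26 with the NeuroD2 vector and 7.35 and 7.30 with the control vector, and differed by -0.04 (adjusted p = 0.820).

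To show the DNA at the start of these 2 receptor genes, which act as 1 complex, a RefSeq promoter window of each (GRCh38.p14, 300 bases, 250 before the start and 50 after it) is printed 5′ to 3′ on the gene's strand. Each is the first listed for its gene. The TGFBR1 window lies on the plus strand at chr9:99104863-99105162, and the TGFBR2 window on the plus strand at chr3:30606106-30606405. Capitals mark matches to CANNTG, the E-box core that basic helix-loop-helix factors recognise, which reads the same on both strands.
TGFBR1: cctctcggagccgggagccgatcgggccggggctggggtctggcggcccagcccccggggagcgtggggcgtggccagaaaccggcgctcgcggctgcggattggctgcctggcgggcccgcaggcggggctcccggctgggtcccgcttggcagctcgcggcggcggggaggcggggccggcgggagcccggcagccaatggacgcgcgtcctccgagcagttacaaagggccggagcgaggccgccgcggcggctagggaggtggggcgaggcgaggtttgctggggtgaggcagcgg
TGFBR2: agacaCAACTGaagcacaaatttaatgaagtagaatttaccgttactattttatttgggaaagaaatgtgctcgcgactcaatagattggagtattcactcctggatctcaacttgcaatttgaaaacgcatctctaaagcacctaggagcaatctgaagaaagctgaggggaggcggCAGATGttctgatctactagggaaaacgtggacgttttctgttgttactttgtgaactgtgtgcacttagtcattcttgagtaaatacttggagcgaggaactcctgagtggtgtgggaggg
The TGFBR1 window held 0 matches, and the TGFBR2 window held 2, spelled CAACTG and CAGATG. RefSeq gave 25 windows for the 10 members, since several genes have more than 1 start, and 17 of them held CANNTG, against 68.7% of all 35116 windows of this length. Of the 8 TGFBR1 windows 4 held it. CAGATG, searched with its other-strand spelling CATCTG, was in 3 of the members' windows and in 14.7% of all, and CAGCTG in 1 and in 17.9% of all. CAGATG and CAGCTG are themselves forms of CANNTG. A match describes the letters only and is not evidence of binding, and which start these cells use was not analysed here.

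TGFBR3 (betaglycan), a co-receptor that presents ligand to TGFBR2 and also binds inhibin, gave readings that disagreed between its probe sets. Its brightest, 11718901_at, read 7.27 and 7.14 with the NeuroD2 vector and 7.53 and 7.59 with the control vector (difference -0.36, 95% interval -0.57 to -0.14, adjusted p = 0.0959). Its dimmest, 11718902_a_at, read 5.71 and 5.74 with the NeuroD2 vector and 5.40 and 5.16 with the control vector (difference 0.45, 95% interval 0.19 to 0.70, adjusted p = 0.0846). Each pair of groups was apart, in opposite directions, and the intervals do not overlap. The middle one, 11718900_a_at, read 7.19 and 7.06 with the NeuroD2 vector and 6.99 and 7.06 with the control vector (difference 0.10, adjusted p = 0.588). None of the 3 passed the test over all probe sets, although 11718901_at passed when dim probe sets were left out (adjusted p = 0.0295), and the difference between probe sets was not itself tested. The mean of the 3 differed by 0.06 (adjusted p = 0.677), so no direction can be given for the gene. Across the family, probe sets of the same gene differed in sign for 5 of the 9 genes that had more than 1: TGFBR1, TGFBR3, TGFB3, FST and SMAD7. For TGFBR1 and FST the other sign came from a probe set that hardly differed (0.0009 and -0.0094), which is not a disagreement in direction. For TGFB3 every 95% interval included 0, and for SMAD7 that of the lower probe set did (-0.34 to 0.12). Only TGFBR3 had intervals on opposite sides of 0.

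**Figure D2:**
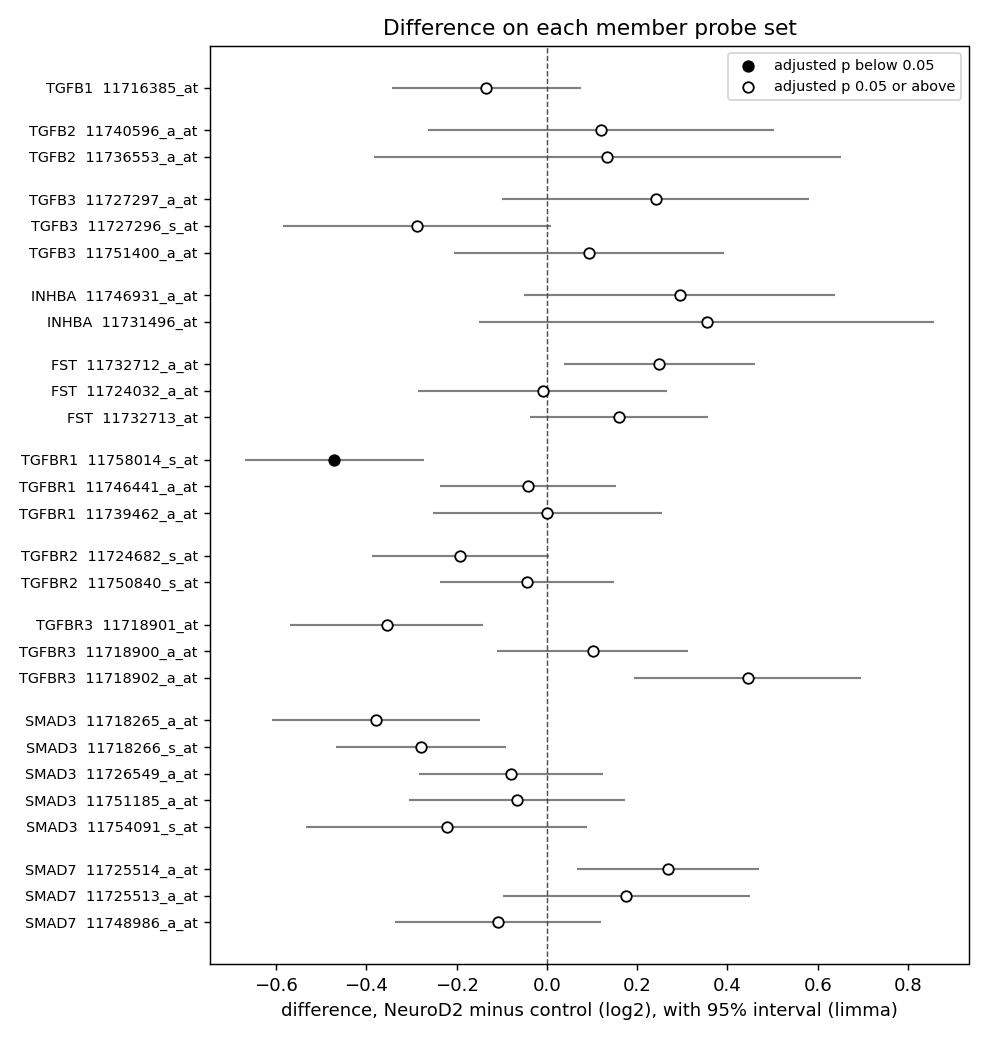
Difference between the NeuroD2 and control arrays (log2, horizontal axis) on each member probe set, with its 95% interval from limma, ordered by role from ligands to SMADs. The filled point, the TGFBR1 probe set at -0.47, is the single one called over all probe sets; the intervals of TGFBR3 probe sets 11718901_at (-0.57 to -0.14) and 11718902_a_at (0.19 to 0.70) lie on opposite sides of 0.

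Among the ligands, none of 6 TGF-beta probe sets passed. TGFB1, the isoform that most cell types make, was read on a single probe set, at 8.06 and 7.97 with the NeuroD2 vector and 8.20 and 8.10 with the control vector (difference -0.13, 95% interval -0.34 to 0.08, adjusted p = 0.450). TGFB2, the isoform first described from glioblastoma cells as a T cell suppressor, read 5.85 and 6.31 with the NeuroD2 vector and 6.01 and 5.92 with the control vector on its brighter probe set, 11740596_a_at (difference 0.12, 95% interval -0.26 to 0.50, adjusted p = 0.743). The NeuroD2 arrays lay on either side of the control arrays there. On the dimmer TGFB2 probe set, 11736553_a_at, they also did, at 5.04 and 4.40 against 4.69 and 4.48 on the control arrays, and leaving out a NeuroD2 array turned the sign on each.

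TGFB3 had all 3 of its probe sets below the median level of all probe sets (5.98). Its brightest, 11727297_a_at, read 5.08 and 5.41 with the NeuroD2 vector and 5.11 and 4.90 with the control vector (difference 0.24, adjusted p = 0.406), and the groups overlapped. On 11727296_s_at it read 4.40 and 4.64 with the NeuroD2 vector and 4.70 and 4.92 with the control vector (difference -0.29, adjusted p = 0.264). The dimmest differed by 0.09 (adjusted p = 0.742).

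INHBA encodes the beta A subunit, which pairs with itself to form activin A. It was read at low values on both probe sets. Probe set 11746931_a_at read 4.82 and 4.77 with the NeuroD2 vector and 4.70 and 4.30 with the control vector (difference 0.29, 95% interval -0.05 to 0.64, adjusted p = 0.319). Probe set 11731496_at read 4.10 and 3.98 with the NeuroD2 vector and 4.004 and 3.36 with the control vector (difference 0.35, 95% interval -0.15 to 0.86, adjusted p = 0.410). Control replicate 2 was the lowest array on both, and without it the differences were 0.09 and 0.03. No detection calls were used, and it cannot be said whether the gene was above background.

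The activin trap follistatin was read on 3 probe sets. FST probe set 11732712_a_at, the brightest, read 8.35 and 8.40 with the NeuroD2 vector and 8.19 and 8.06 with the control vector (difference 0.25, 95% interval 0.04 to 0.46, unadjusted p = 0.0285 and adjusted p = 0.192 by limma). Both NeuroD2 arrays were above both control arrays there and on the dim 11732713_at, which differed by 0.16 (adjusted p = 0.346). On 11724032_a_at the groups overlapped and differed by -0.01 (adjusted p = 0.984).

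SMAD3, the receptor-activated carrier of the signal, was lower on all 5 of its probe sets, but none passed. Probe set 11718265_a_at read 9.56 and 9.51 with the NeuroD2 vector and 10.00 and 9.82 with the control vector (difference -0.38, 95% interval -0.61 to -0.15, adjusted p = 0.0980). Probe set 11718266_s_at read 9.36 and 9.33 with the NeuroD2 vector and 9.61 and 9.64 with the control vector (difference -0.28, 95% interval -0.47 to -0.09, adjusted p = 0.123). The groups did not overlap on these 2, and they overlapped or touched on the other 3, whose differences ran from -0.22 to -0.07. Probe sets of 1 gene read the same RNA and are not replicates. The 2 brighter ones passed when limma let the variance depend on intensity (adjusted p = 0.0210 and 0.0304) and when dim probe sets were left out (adjusted p = 0.0320 and 0.0372), while their differences stayed the same. Over the mean of its probe sets SMAD3 differed by -0.21 and did not pass (adjusted p = 0.199).

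SMAD7, the inhibitor that SMAD signalling induces, was read on 3 probe sets. The brightest, 11725514_a_at, read 8.19 and 8.20 with the NeuroD2 vector and 7.87 and 7.98 with the control vector (difference 0.27, 95% interval 0.07 to 0.47, unadjusted p = 0.0178 and adjusted p = 0.153 by limma). Probe set 11725513_a_at differed by 0.18 (adjusted p = 0.450), with both NeuroD2 arrays above both control arrays by a small margin over control replicate 2 (5.46 and 5.41 against 5.12 and 5.40). On 11748986_a_at the groups overlapped and differed by -0.11 (adjusted p = 0.592).

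**Figure D3:**
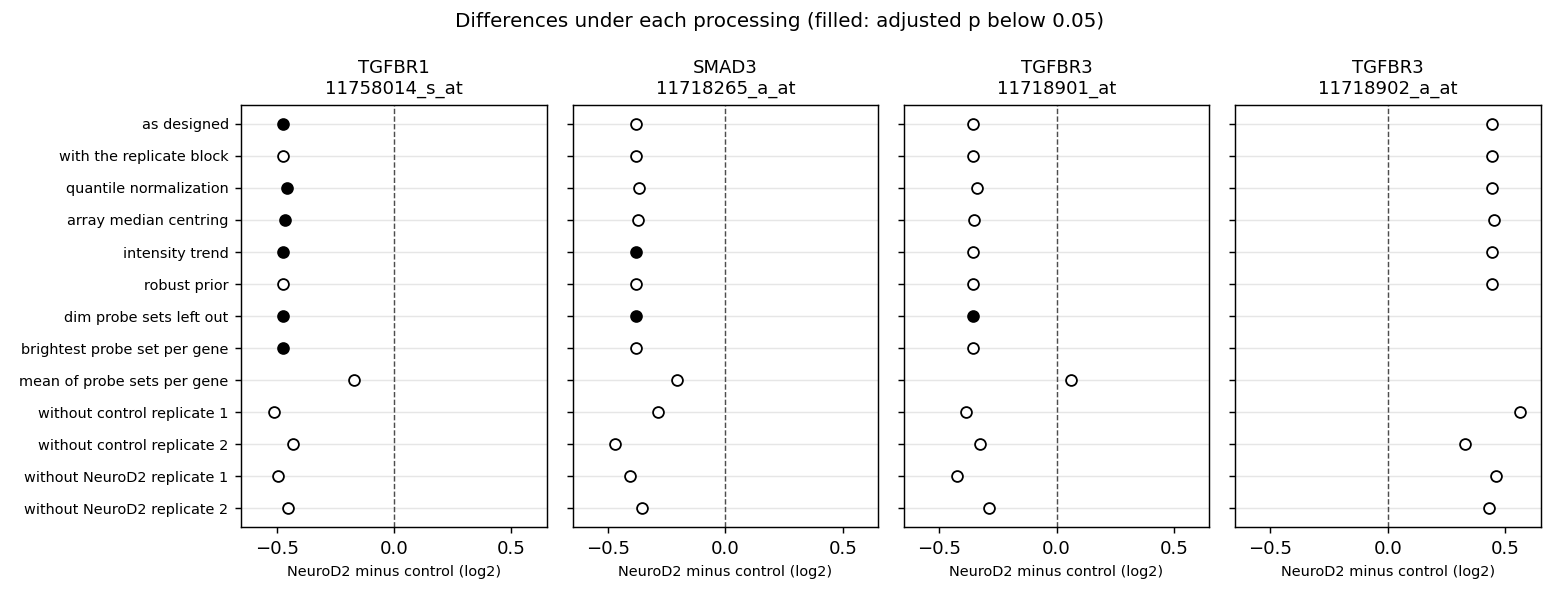
Difference between NeuroD2 and control arrays (log2, horizontal axis) of 4 member probe sets under each way of processing (rows), filled where the adjusted p was below 0.05. The TGFBR1 probe set lies between -0.51 and -0.43 except with the mean of its probe sets (-0.17); SMAD3 passes with the intensity trend and without dim probe sets. A mean is drawn for a gene's brightest probe set only, and the dimmest TGFBR3 probe set has no point where dim ones were left out.

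The rest of the pathway was described by 5 lists of other genes, each gene by its brightest probe set. Of 73 listed genes 70 were measured, of which 4 rose, 7 fell and 59 did not pass the limma test over all probe sets. By this rule 3.09% of all genes were called, 1.24% higher and 1.85% lower. The lists were chosen with earlier results of these data known, so the counts beside this share are not a result about the pathway. Fits with 1 array left out called few or no probe sets anywhere, so they cannot show whether the calls of these genes hold.

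Of 13 other activin and nodal class ligands and receptors 1 fell and 12 did not pass (median difference -0.02, over all genes 0.00). The gene that fell was INHBE, which encodes the beta E subunit, made mainly in liver. It read 4.67 and 4.90 with the NeuroD2 vector and 5.40 and 5.59 with the control vector, on its only probe set (difference -0.71, adjusted p = 0.0417). These readings lay below the median level of all probe sets, and it cannot be said whether INHBE was above background. Of 10 genes of the latent complex and its activation 0 passed by limma, with 1 higher and 2 lower at an unadjusted p below 0.05 (median -0.03). The largest differences were those of THBS1, an extracellular activator of latent TGF-beta (-0.51, adjusted p = 0.176), and of LTBP3, which anchors the latent complex in the matrix (-0.43, adjusted p = 0.0589). THBS1 was also below the median level, at 4.85 and 4.58 with the NeuroD2 vector and 5.00 and 5.45 with the control vector. LTBP3 passed in 3 of the alternatives, those with an intensity trend, without dim probe sets and with the brightest probe set of each gene. NRROS, which anchors latent TGF-beta on myeloid cells and is named here after its value was seen, differed by 0.40 (adjusted p = 0.0929) and passed in 2 of them, without dim probe sets and with the mean of probe sets.

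Of 7 genes in the list of other SMAD transducers, 6 SMAD genes and the SMAD anchor ZFYVE9, 1 fell and 6 did not pass (median -0.19). SMAD6, the inhibitory SMAD that acts mainly on the BMP branch, read 6.52 and 6.58 with the NeuroD2 vector and 7.47 and 7.65 with the control vector (difference -1.01, standard error 0.09, adjusted p = 0.0126). The control level was 2.01-fold the NeuroD2 level on that probe set. Its other 2 probe sets differed by -0.28 (adjusted p = 0.182) and 0.12 (adjusted p = 0.455), and the mean of the 3 by -0.39 (adjusted p = 0.0218).

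Of 16 antagonists and feedback regulators 2 rose and 14 did not pass (median 0.14). TGIF1, a co-repressor that binds SMADs in the nucleus, read 9.88 and 9.87 on the NeuroD2 arrays against 9.42 and 9.36 on the control arrays (difference 0.48, adjusted p = 0.0416), and its second probe set also passed (difference 0.47). SMURF2, a ubiquitin ligase that targets TGF-beta receptors together with SMAD7, read 9.89 on both NeuroD2 arrays against 9.36 and 9.48 on the control arrays (difference 0.47, adjusted p = 0.0498). Its other 2 probe sets were higher too, by 0.41 and 0.52, without passing, and the call was lost with a robust prior.

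Genes that TGF-beta is known to induce went in both directions. Of 24 measured, 2 rose, 5 fell and 17 did not pass (median 0.04). The 5 that fell were TGFBI, FN1, CCN2, COL1A1 and COL1A2. COL3A1, another collagen gene of the list, named here after its value was seen, differed by 0.08 (adjusted p = 0.745). Its readings, 3.98 and 4.07 with the NeuroD2 vector and 4.07 and 3.83 with the control vector, lay below the median level of all probe sets. Whether COL3A1 was above background cannot be said, so its small difference is not set against the fall of the type I chains. TGFBI, a secreted adhesion protein named for its induction by TGF-beta, read 12.32 and 12.33 with the NeuroD2 vector and 12.92 and 12.81 with the control vector (difference -0.54, adjusted p = 0.0362), and all 4 of its probe sets passed. FN1, fibronectin, read 10.97 and 10.92 with the NeuroD2 vector and 11.46 and 11.69 with the control vector (difference -0.63, adjusted p = 0.0419), with 7 of 8 probe sets passing. CCN2, connective tissue growth factor, read 8.25 and 8.26 with the NeuroD2 vector and 8.84 and 9.01 with the control vector (difference -0.67, adjusted p = 0.0276). The type I collagen chain genes COL1A1 (-0.62, adjusted p = 0.0232) and COL1A2 (-0.69, adjusted p = 0.0216) fell as well, on 1 of 5 and 4 of 6 probe sets, and all of these probe sets were lower. PDGFRB, of the smooth muscle or fibroblast markers, fell by 0.55 on the same arrays, at 6.28 and 6.33 with the NeuroD2 vector and 6.93 and 6.78 with the control vector. The other markers of its list, DES and MYH11, differed by 0.07 and 0.16 without passing. The part of PDGFRB in this group was not tested.

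The 2 induced genes that rose encode cytokines of the interleukin-6 type. LIF read 11.87 and 11.83 with the NeuroD2 vector and 10.36 and 10.26 with the control vector (difference 1.54, 2.91-fold, adjusted p = 0.00356), and all 3 of its probe sets passed. IL11 read 7.48 and 7.43 with the NeuroD2 vector and 6.56 and 6.47 with the control vector (difference 0.94, 1.92-fold, adjusted p = 0.0109). On its other 2 probe sets IL11 was higher by 0.39 and 0.38 without passing, and with the mean of the 3 the difference was 0.57 (adjusted p = 0.0151).

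**Figure D4:**
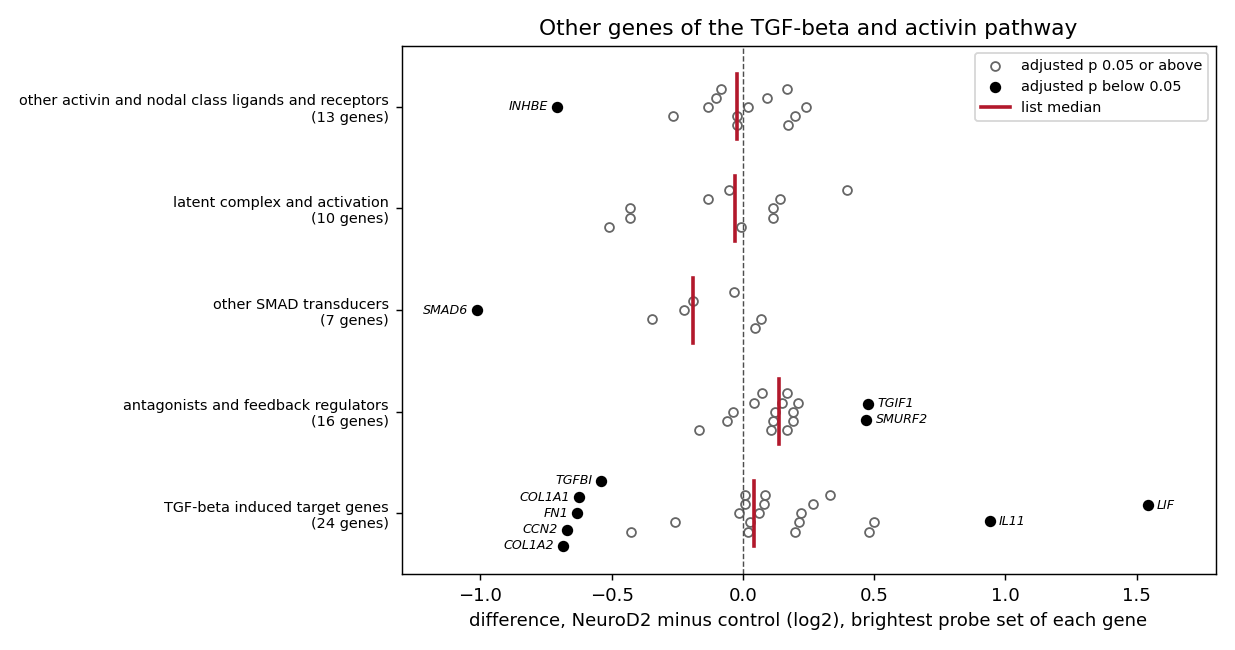
Difference between NeuroD2 and control arrays (log2, horizontal axis) of 70 other pathway genes, each on its brightest probe set, in 5 lists (rows). Filled, named points passed over all probe sets, and the vertical bar is the list's median, between -0.19 and 0.14; the 5 called lower in the induced list lie between -0.69 and -0.54, and LIF and IL11 at 1.54 and 0.94.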

How the data were processed

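The deposited table held 49395 rows, of which 102 were Affymetrix controls and 49293 were tested. The values were taken as log2 because the deposited numbers ran from 2.65 to 14.3, with array medians between 5.98 and 5.99. How the authors normalized them, and with which software, is not given in the sources used here. No values were centred per gene, and the number of arrays limits the precision.

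Symbols came from the platform annotation: 1832 probe sets carried several and 2473 none, and these were tested but not named. Groups were compared with limma 3.58.1 in R 4.3.3 (lmFit and eBayes, two-sided, NeuroD2 minus control, 2 residual and 3.87 prior degrees of freedom), with Benjamini-Hochberg adjustment over all 49293 probe sets and a threshold of 0.05. The script was tested on simulated data. No exact permutation test was used, since with 2 arrays a group its smallest p is 0.333.

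All member probe sets are named. Of each pathway list, every called gene is named (at most 8) or otherwise the 2 largest differences. Of the listed genes 3 were not analysed here. Members and lists were chosen with earlier results of these data known. A probe set ending in s_at or x_at can match transcripts of more than 1 gene. Alternatives were a replicate block, each array left out, quantile normalization, median centring, a robust prior, an intensity trend, leaving out dim probe sets, and 1 value a gene (the brightest probe set or the mean).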

Additional observations from a re-analysis of the deposited data

How the results depend on the processing

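Over all probe sets 1416 were called (622 higher), against 4041 with an intensity trend, 4086 of 24647 without dim probe sets, 864 of 18132 with the brightest probe set per gene, and 0 to 45 with an array left out. At an unadjusted p below 0.05 there were 9735, against 10614 and 10006 without a control array and 5277 and 5575 without a NeuroD2 array. Among the calls, 43.9% were higher, against 64.4% with the replicate block and 84.4% without either NeuroD2 array. Member probe sets called (1 in 1 gene) numbered 3 in 2 genes with the trend, 4 of 16 in 3 genes without dim probe sets, and 0 with the robust prior, the mean of probe sets or any array left out. Replicate numbers are shared between groups, but same-numbered arrays deviated together only weakly (r = 0.08 over probe sets, which are not independent), so the block was not taken as a pairing. With the replicate block 90 probe sets, 0 member probe sets and 1 pathway gene (LIF) were called, and the TGFBR1 probe set had an adjusted p of 0.106.

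Pathway calls in the activin list were 0 without dim probe sets, a filter that removed INHBE, so that it was not tested. In the latent complex list they were 1 with the trend, the brightest or the mean, and 2 without dim probe sets. The SMAD list had 2 with the trend or without dim probe sets, and the antagonist list 1 with the robust prior. With an array left out they were 0 in the activin, SMAD and antagonist lists and 0 to 1 among induced genes. Of 279 alternative values of member probe sets, 11 turned sign, on 7 probe sets, none of which was called with the settings of the report. TGFBR1 11739462_a_at was at -0.015 with quantile normalization and between -0.12 and 0.12 with 1 array left out. FST 11724032_a_at was at 0.0021 with quantile normalization and between -0.12 and 0.10 with 1 array left out. The turn counted for TGFBR3 11718901_at was the mean of the gene's probe sets (0.064), while that probe set itself stayed lower in every setting. With 1 array left out the range was -0.19 to 0.45 for TGFB2 11736553_a_at, -0.11 to 0.35 for TGFB2 11740596_a_at, -0.049 to 0.23 for TGFB3 11751400_a_at and -0.15 to 0.020 for SMAD3 11751185_a_at. Where 1 array was left in a group, it was assumed to vary like the other group.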
